A study of Mus musculus with 12 samples.

Results

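The genes described here were 9 genes of compact myelin and of the oligodendrocytes that make it, namely Mbp, Mog, Mag, Mobp, Mal, Cnp, Cldn11, Opalin and Ermn. They were chosen by name, as the rows whose gene symbol equalled one of these, and each symbol had 1 row among the 54833 genes of the deposited table. RNA sequencing was carried out on tissue from the caudate putamen on the injected side of male WT mice (C57BL/6) at 24 hours, which was perihematomal tissue, the tissue around the bleed, after ICH and the matching tissue after sham surgery. There were 4 groups with 3 samples each, and each sample was a pool of tissue from several mice. Young sham mice (8 to 10 weeks old) and aged sham mice (20 to 22 months old) had received saline, and young ICH and aged ICH mice of the same ages had received type IV collagenase, an enzyme that breaks down vessel walls and so causes an intracerebral hemorrhage (ICH). The comparisons ask how the tissue differs with age, how it responds to ICH at each age, and whether the response differs between the ages. The p-values measure the spread between pools, not between single mice.

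Oligodendrocytes wrap axons of the central nervous system in a lipid-rich sheath, in which layers of membrane are pressed together into compact myelin, and the sheath speeds conduction and supports the axon. In the caudate putamen much of the myelin lies in bundles of fibers that cross the gray matter, so that the amount of myelin in a piece of tissue varies with where it is taken. Mature oligodendrocytes carry large amounts of messenger RNA for myelin proteins, part of which is moved out to the sheath and translated there.

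The 12 samples held between 28410896 and 37785160 counts, and the 9 genes together took between 115504 and 226865 of them. That was 0.476% ± 0.126 of all counts in young sham, 0.558% ± 0.0734 in young ICH, 0.495% ± 0.0678 in aged sham and 0.428% ± 0.0357 in aged ICH (SD, n = 3 each). All 9 genes passed the filter on low counts, with 21495 genes tested in all, and the lowest count of any of them in any sample was 302, for Opalin. In bulk tissue fewer oligodendrocytes and less RNA per oligodendrocyte cannot be told apart.

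Libraries differed in what else the dissected tissue held. The summed level of 8 choroid plexus markers, in CPM (each count as a share of its library, scaled by TMM factors), was 4119 in young ICH replicate 3, 1571 in aged ICH replicate 1 and 1993 in aged ICH replicate 2, and lay between 13.3 and 497 in the other 9 samples. The most abundant of these markers, here and in each list below by the mean of the authors' FPKM, was Ttr, which encodes transthyretin and is made by the epithelium of the choroid plexus, and none of the 8 was at 0. The summed level of 10 markers of striatal projection neurons, the main neurons of the caudate putamen, was 3402, 2115 and 2002 CPM in young sham, 1416, 645 and 1995 in young ICH, 2654, 2925 and 1719 in aged sham, and 400.2, 2164 and 858 in aged ICH. Penk, which encodes the precursor of the enkephalins, was the most abundant of the 10, and all were detected. The tissue thus carried the markers of its label in every group, and the highest sample was a larger multiple of the lowest within each ICH group than within each sham group. The summed level of 10 cortical neuron markers was 2477, 3151 and 3426.5 CPM in young sham and 2528, 3266 and 1899 in young ICH. It was 2666, 2088 and 2437 CPM in aged sham and 2567, 1996 and 2678 in aged ICH. Young ICH replicate 2 had the highest cortical and the lowest striatal sum of its group. Aged ICH replicate 2 had the lowest cortical and the highest striatal sum of its group. The part of these differences in the results below was not tested, beyond the values given without single libraries.

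**Figure D1:**
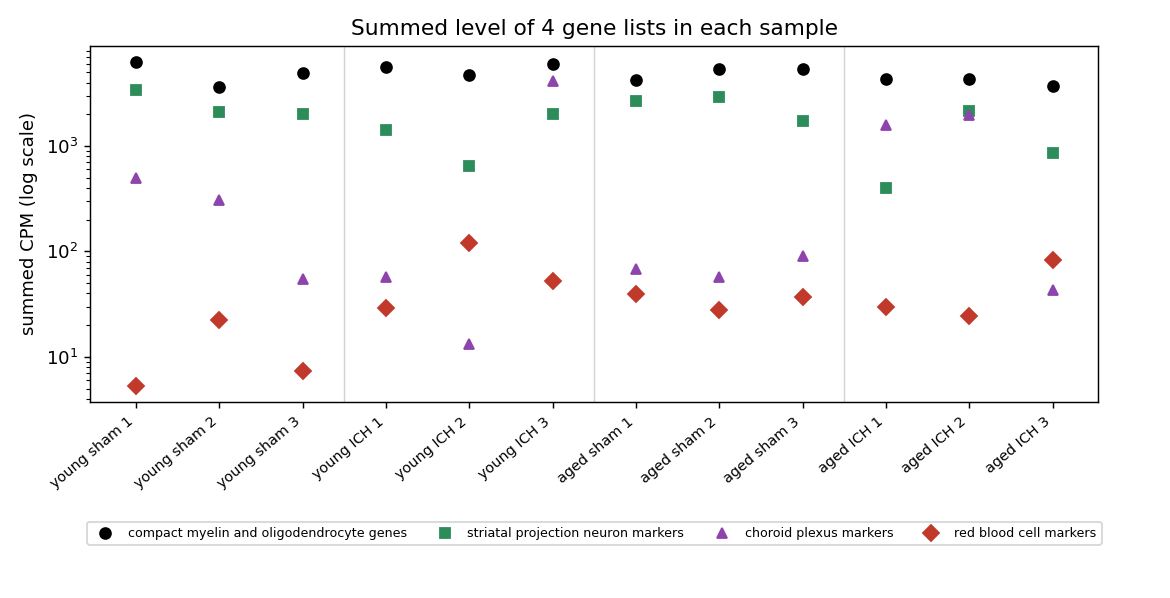
Summed CPM of the 9 compact myelin and oligodendrocyte genes (circles), 10 striatal projection neuron markers (squares), 8 choroid plexus markers (triangles) and 7 red blood cell markers (diamonds) in each of the 12 samples, on a log scale. The 9 genes together lie between 3664 and 6269 CPM, while the choroid plexus markers range from 13.3 to 4119 CPM.

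Levels were compared between genes only in the authors' FPKM, which are per length. In young sham mice Mbp, the basic protein that holds the cytoplasmic faces of the membrane together, was highest at 306.5 ± 81.5 FPKM (SD, n = 3), which was rank 53 among all genes. Mobp, a second basic protein of compact myelin, followed at 152 ± 42.6 FPKM. Cldn11, the claudin of the tight junctions between myelin layers, had 106 ± 30.1 FPKM, Mal, a proteolipid of myelin membrane rafts, 94.6 ± 25.5 FPKM, and Cnp, an enzyme-like protein of the cytoplasm-filled channels of the sheath, 86.8 ± 20.0 FPKM. The FPKM of Cldn11, Mal and Cnp lay within their spread of one another. Mag, an immunoglobulin-type protein of the inner membrane that faces the axon, had 47.1 ± 11.03 FPKM, Mog, an immunoglobulin-type protein of the outermost surface, 36.5 ± 7.58 FPKM, and Ermn, an actin-binding protein of the oligodendrocyte cytoskeleton, 26.4 ± 5.76 FPKM. Opalin, a transmembrane protein of the oligodendrocyte, was lowest at 9.35 ± 1.80 FPKM. Mbp and Mobp kept the highest and second highest mean FPKM of the 9 in all 4 groups, and Opalin the lowest. Mog ranked above Ermn in the 2 young groups and below it in the 2 aged groups, with a mean of 29.5 ± 6.74 FPKM against 36.0 ± 4.73 in aged sham and 17.1 ± 0.886 against 30.3 ± 3.06 in aged ICH.

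**Figure D2:**
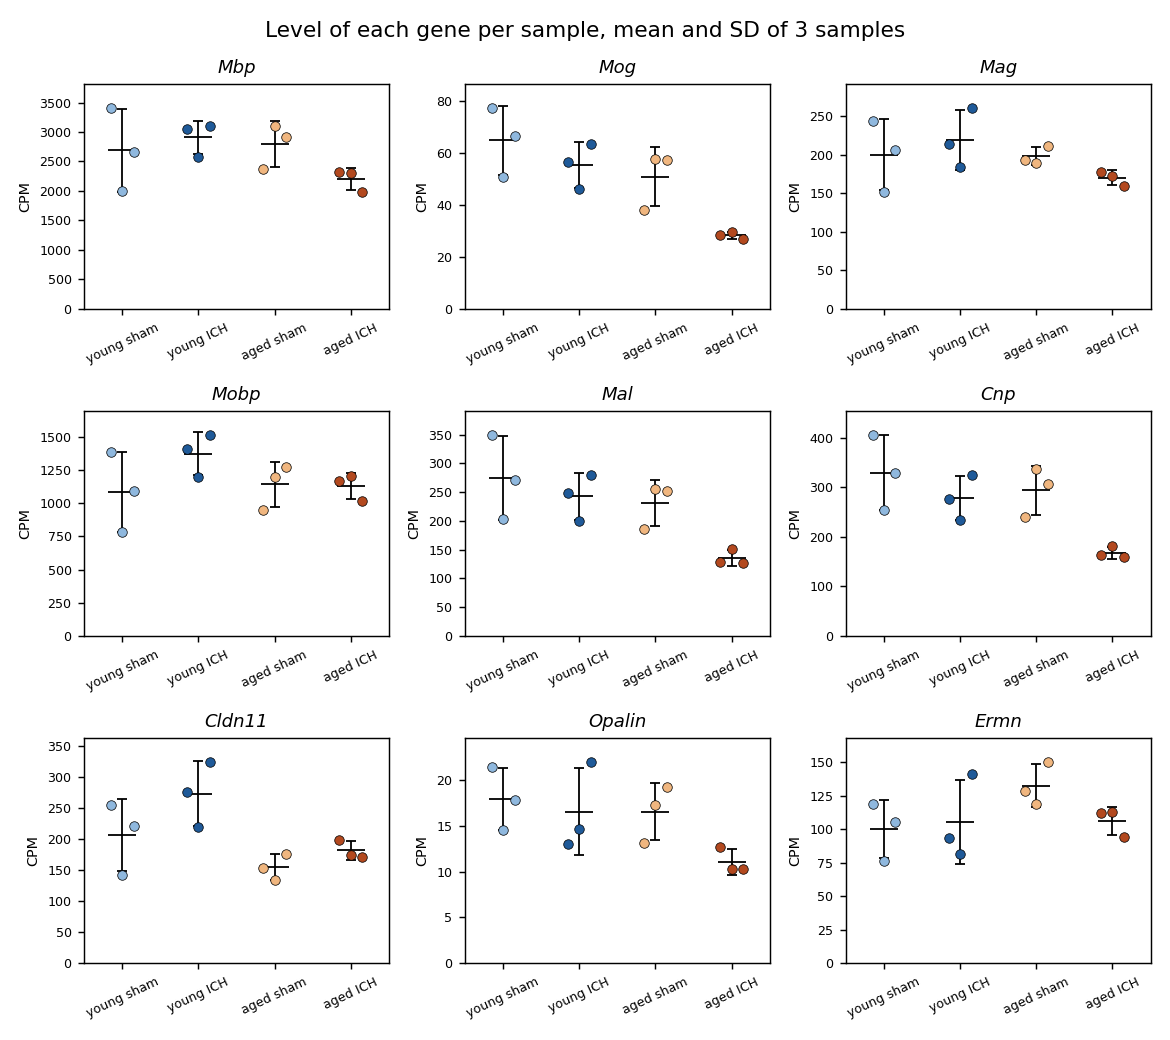
CPM of each of the 9 genes in every sample (dots), with the mean (horizontal bar) and SD (whiskers) of 3 samples per group, and each vertical axis starting at 0. The 3 aged ICH samples lie between 26.8 and 29.5 CPM for Mog, below the samples of the other 3 groups, while for Mobp they lie among the aged sham samples.

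The response to ICH in aged mice was seen in 3 of the 9 genes, Mog, Cnp and Mal, which all fell. A gene was called here when its adjusted P in edgeR was under 0.05, and 6.15% of all genes tested were lower and 7% were higher by that rule in aged ICH against aged sham. Mog, of the outer myelin surface, was at 37.9, 57.8 and 57.1 CPM in the aged sham samples and at 28.3, 29.5 and 26.8 CPM in the aged ICH samples. All 3 aged ICH samples were thus lower than the lowest aged sham sample, and they lay closer together. Mog fell by 0.85 on the log2 scale (SE 0.18, 95% interval -1.25 to -0.45, edgeR adjusted P = 0.0136), a ratio of 0.554.

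Cnp, of the channels of the sheath, was at 239, 336 and 306 CPM in aged sham and at 163, 182 and 159 CPM in aged ICH. The groups did not overlap, and the log2 fold change was -0.81 (SE 0.17, 95% interval -1.19 to -0.43, edgeR adjusted P = 0.0137), a ratio of 0.572. Mal, of the membrane rafts, was at 185, 256 and 251 CPM in aged sham and at 128, 151 and 127 CPM in aged ICH. These groups did not overlap either, and the log2 fold change was -0.77 (SE 0.19, 95% interval -1.19 to -0.35, edgeR adjusted P = 0.0237), a ratio of 0.586. In the aged sham group replicate 1 was the lowest for Mog, Cnp and Mal. The calls were lost with some samples: without aged sham replicate 2, aged ICH replicate 1 or aged ICH replicate 3, none of the 9 genes passed, with edgeR adjusted P for Mog of 0.0519, 0.0587 and 0.0532 in turn, for Cnp of 0.0533, 0.0627 and 0.0542 and for Mal of 0.0835, 0.0971 and 0.0820. Over all genes 1273 of 22063, 679 of 21986 and 1222 of 22029 passed in these fits in turn, against 2828 of 21495 with every sample. Without aged sham replicate 3, Mal had an edgeR adjusted P of 0.0655. The log2 fold changes over the samples left out in turn stayed between -1.03 and -0.75 for Mog, between -0.93 and -0.70 for Cnp and between -0.91 and -0.69 for Mal.

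The other 6 genes did not pass in edgeR in aged mice, and 1 of them, Opalin, passed in DESeq2, which called 3683 of 21495 genes. Opalin was at 13.1, 17.2 and 19.3 CPM in aged sham and at 12.6, 10.2 and 10.3 CPM in aged ICH, a log2 fold change of -0.58 (SE 0.21, edgeR adjusted P = 0.0924, DESeq2 adjusted P = 0.0383). It met a looser rule for a differentially expressed gene (DEG), an unadjusted P under 0.05 with a fold change above 1.5 or below 0.67, and did so narrowly, with a ratio of 0.668. These thresholds are those of the study, which used DESeq2, and are applied here to the edgeR values. By this rule 4 of the 9 genes were lower, Opalin besides Mog, Cnp and Mal, where 2.82% of all genes were. Opalin was no longer among them with 5 of the other settings, nor when replicate 2 of young ICH, or replicate 2 or 3 of either aged group, was left out. Mbp was at 2367, 3108 and 2916 CPM in aged sham and at 2325, 2305 and 1989 CPM in aged ICH, without overlap, and its log2 fold change was -0.34 (95% interval -0.72 to 0.04, edgeR adjusted P = 0.218). For Ermn the log2 fold change was -0.32 (95% interval -0.75 to 0.12) and for Mag -0.22 (95% interval -0.57 to 0.12). Mobp was at 951, 1199 and 1277 CPM in aged sham and at 1170, 1204 and 1015 CPM in aged ICH. The Mobp samples of the 2 groups were intermixed, and the log2 fold change of -0.02 (95% interval -0.42 to 0.38) changed sign with other scalings. Cldn11 had the only positive value of the 9, at 153, 134 and 176 CPM in aged sham and 199, 175 and 171 CPM in aged ICH, with a log2 fold change of 0.23 (95% interval -0.19 to 0.66, edgeR adjusted P = 0.469). The median log2 fold change of the 9 genes was -0.34, beside 0.00 over all genes tested. For 7 of the 9 genes, all but Mobp and Cldn11, every aged ICH sample was below every aged sham sample, as were 17.3% of all genes.

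**Figure D3:**
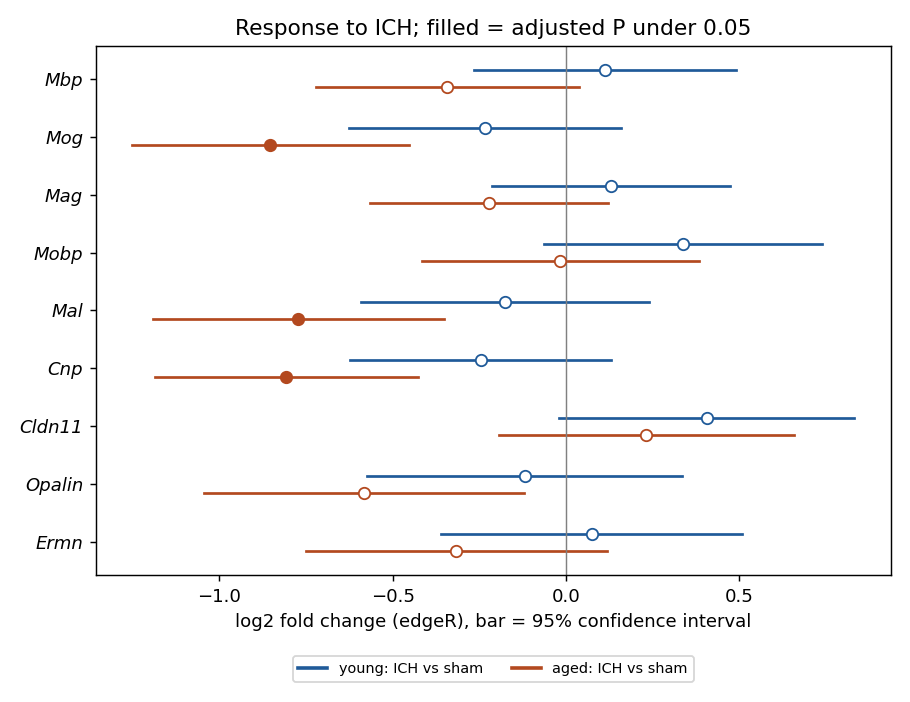
Log2 fold change (dots) and 95% confidence interval (lines) from edgeR of each of the 9 genes for ICH against sham in young mice (blue) and in aged mice (brown), where filled dots have an adjusted P under 0.05. In aged mice Mog, Mal and Cnp lie between -0.85 and -0.77, and in young mice the 9 genes lie between -0.25 and 0.41 with intervals that include 0.

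In young mice none of the 9 genes passed in edgeR, beside 9.23% of all genes called lower and 9.89% called higher. None had an unadjusted P under 0.05 in edgeR, where 7132 of 21495 genes did. None passed in DESeq2, where 4820 of 21495 genes did, or in limma on log2(FPKM + 1), where 3949 of 17984 did. At an unadjusted P under 0.05 were 1 of the 9 in DESeq2, beside 6970 of 21495 genes, and 2 in limma, beside 6593 of 17984. Mog was at 77.4, 50.9 and 66.5 CPM in young sham and at 56.4, 46.0 and 63.4 CPM in young ICH, so the groups overlapped, with a log2 fold change of -0.23 (95% interval -0.63 to 0.16). Cnp was at 406, 255 and 329 CPM in young sham and at 276, 234 and 324 CPM in young ICH, with a log2 fold change of -0.25 (95% interval -0.62 to 0.13). Mal, at 350, 203 and 271 CPM in young sham and 248, 199.7 and 281 CPM in young ICH, had a log2 fold change of -0.18 (95% interval -0.59 to 0.24). The values of Mog, Cnp and Mal were spread more widely in young sham than in aged ICH, with replicate 1 highest and replicate 2 lowest.

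That order of the young sham samples held for each of the 9 genes. Mbp, for instance, was at 3412, 1992 and 2661 CPM in young sham and at 3044, 2582 and 3099 CPM in young ICH, and its coefficient of variation was 26.4% in young sham against 8.56% in aged ICH. Cldn11 had the largest positive log2 fold change of the 9 in young mice, 0.41 (95% interval -0.02 to 0.83, edgeR adjusted P = 0.169), at 256, 142 and 221 CPM in young sham and 276, 220 and 324 CPM in young ICH. Mobp followed with 0.34 (95% interval -0.06 to 0.74, edgeR adjusted P = 0.221). The median log2 fold change of the 9 was 0.08, beside 0.02 over all genes, and it was -0.19 without young ICH replicate 3, the sample with the most choroid plexus RNA, which had the highest value of the young ICH group in each of the 9 genes. No gene of the 9 was a DEG in young mice, where 12.2% of all genes were DEGs in either direction. No gene of the 9 had all young ICH samples below all young sham samples, while 16.5% of all genes did.

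The difference between the responses at the 2 ages was tested as an interaction, the response in aged mice minus that in young mice. It was negative for each of the 9 genes, beside 10990 of 21495 genes. It was also negative for all 10 astrocyte and all 8 endothelial genes listed below, and for 1 of 10 cortical neuron genes. The median of the 9 was -0.46 (-0.28 without young sham replicate 2 or without young ICH replicate 3), beside -0.01 over all genes. None of the 9 was called in edgeR, where 0% of all genes were called. At an unadjusted P under 0.05 edgeR had 3 of the 9 genes, Mog, Cnp and Mal, and 2.82% of all genes in either direction. DESeq2 called none of the 9 after adjustment, beside 1 of 21495 genes. It had 3 of them at an unadjusted P under 0.05, beside 497 of 21495 genes. In limma on log2(FPKM + 1) none of the 9 passed at either level, beside 0 of 17984 genes after adjustment and 543 at an unadjusted P under 0.05. The interaction was -0.62 for Mog (95% interval -1.18 to -0.06), -0.60 for Mal (-1.19 to -0.01) and -0.56 for Cnp (-1.09 to -0.03). By the DEG rule 2 of the 9 genes were lower, Mog and Mal, where 1.08% of all genes were. That count was 0 without young sham replicate 2, without young ICH replicate 1 or 3, without aged sham replicate 2 or 3 and without aged ICH replicate 1 or 3, 1 without young sham replicate 3, 3 without young ICH replicate 2, aged sham replicate 1 or aged ICH replicate 2, and 4 without young sham replicate 1. A fall of the 3 genes that is larger in aged than in young mice was thus not shown after adjustment.

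The aged ICH samples were then set against the young ICH samples, a comparison that shares the aged ICH samples with the one above. No gene of the 9 passed in edgeR, where 0.0558% of all genes did in either direction, and 7 of the 9 had an unadjusted P under 0.05, beside 2050 of 21495 genes. DESeq2 called 3 of them, Mog (adjusted P = 0.000175), Mal (adjusted P = 0.00311) and Cnp (adjusted P = 0.00716), beside 198 of 21495 genes. The same 3 passed in edgeR without a filter on low counts, beside 61 of 39887 genes. With limma on log2(FPKM + 1) none of the 9 was called, beside 13 of 17984 genes. At an unadjusted P under 0.05 limma had 5 of the 9, beside 1840 of 17984 genes. By the DEG rule 5 of the 9 were lower, Mog, Mal, Cnp, Cldn11 and Opalin, beside 1.3% of all genes. The log2 fold change was -0.97 for Mog (SE 0.18, edgeR adjusted P = 0.127), -0.85 for Mal (SE 0.19, edgeR adjusted P = 0.185) and -0.73 for Cnp (SE 0.17, edgeR adjusted P = 0.201). It was -0.59 for Cldn11 and -0.58 for Opalin, and 3 of the 9 genes, Mog, Mal and Cnp, were DEGs without young ICH replicate 3 or without aged ICH replicate 2 or 3. Every aged ICH sample was below every young ICH sample for 7 of the 9 genes, all but Mobp and Ermn, where 6.42% of all genes had that order. Ermn was at 93.7, 81.5 and 141 CPM in young ICH and at 112, 113 and 94.4 CPM in aged ICH, with a log2 fold change of 0.01. The median over the 9 genes was -0.58, beside 0.00 over all genes, and -0.35 without young ICH replicate 3.

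Between the sham groups, which show age without hemorrhage, edgeR called none of the 9 genes, where 0.102% of all genes were called in either direction, and none had an unadjusted P under 0.05, where 2653 of 21495 genes did. DESeq2 called none either, beside 294 of 21495 genes, and nor did limma on log2(FPKM + 1), beside 13 of 17984. At an unadjusted P under 0.05 were 2 of the 9 in DESeq2, beside 2544 of 21495 genes, and none in limma, beside 2299 of 17984. The log2 fold changes of aged sham against young sham ran from -0.42 for Cldn11 (95% interval -0.84 to 0.01) and -0.35 for Mog (95% interval -0.74 to 0.04) to 0.40 for Ermn (95% interval -0.03 to 0.84). No gene of the 9 was a DEG, where 3.72% of all genes were in either direction, although 1, Cldn11, was one without young sham replicate 2. Ermn was at 119, 76.4 and 105 CPM in young sham and at 128, 119.1 and 150 CPM in aged sham. It was the only gene of the 9 for which every young sham sample was below every aged sham sample, by a narrow margin, and 9.81% of all genes had that order. The median of the 9 was -0.12, beside 0.01 over all genes, and ran from -0.25 without young sham replicate 2 to 0.03 without young sham replicate 1.

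The level of each gene was also set against that of Mbp in the same sample, which removes differences between samples in how much myelin RNA was captured, as far as these are shared by both genes. These ratios were chosen after the values were seen and were not tested. Mal was at 31.0%, 30.8% and 30.8% of the FPKM of Mbp in young sham, although its CPM differed between these samples, and at 24.7%, 23.4% and 27.4% in young ICH. It was at 23.6%, 24.9% and 26.1% in aged sham and at 16.6%, 19.8% and 19.3% in aged ICH. Mal relative to Mbp was thus highest in young sham, lowest in aged ICH and intermixed in young ICH and aged sham.

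Mog gave the same order, at 11.2%, 12.6% and 12.3% of Mbp in young sham, 9.14%, 8.78% and 10.1% in young ICH, 7.90%, 9.17% and 9.66% in aged sham and 6.0%, 6.32% and 6.65% in aged ICH. Cnp was at 28.5% ± 1.03 of Mbp in young sham, 22.0% ± 1.85 in young ICH, 24.2% ± 0.839 in aged sham and 17.6% ± 1.24 in aged ICH (SD, n = 3 each). In each of these 3 genes the mean ratio was lower with ICH than with sham at both ages. Mobp went the other way, at 49.8%, 48.0% and 50.5% of Mbp in young sham and 56.7%, 57.0% and 60.0% in young ICH, and at 49.3%, 47.3% and 53.7% in aged sham and 61.8%, 64.1% and 62.6% in aged ICH. The mean ratio of Mobp to Mbp was thus higher with ICH than with sham at both ages. Cldn11 was at 34.3% ± 2.70 of Mbp in young sham and 42.0% ± 4.50 in young ICH, and at 25.2% ± 5.10 in aged sham and 37.0% ± 2.58 in aged ICH, again higher with ICH. Mag was between 12.6% and 17.4% of Mbp in the 12 samples, with groups that overlapped. A ratio of this kind shows unequal change of 2 genes and does not say which of them changed.

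**Figure D4:**
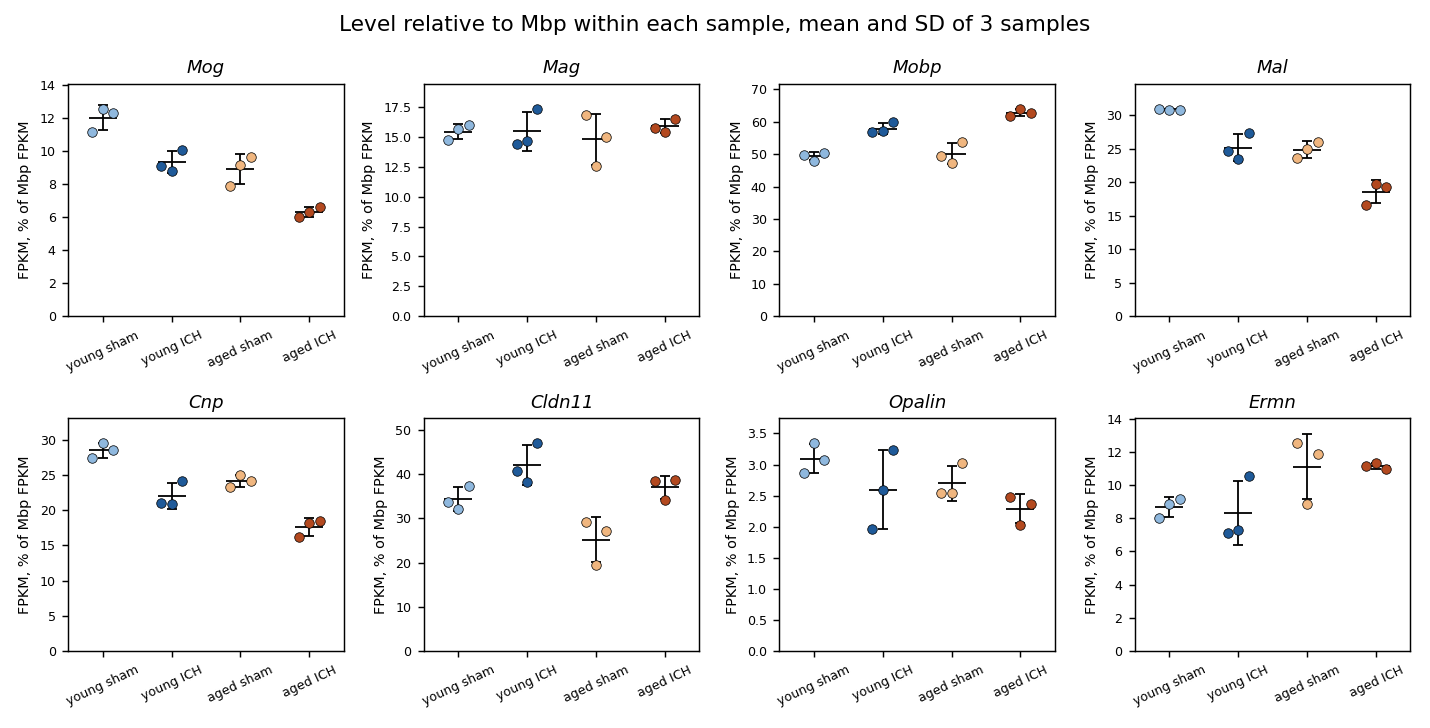
FPKM of 8 genes as a percentage of the FPKM of Mbp in the same sample (dots), with the mean (horizontal bar) and SD (whiskers) of 3 samples per group, and each vertical axis starting at 0. Mal runs from 30.8% to 31.0% in young sham to between 16.6% and 19.8% in aged ICH, and Mobp from between 48.0% and 50.5% to between 61.8% and 64.1%.

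The 9 genes differed in how closely they varied together over the 12 samples, and less so within groups. Over all 12 samples the log2 CPM of Mog, Mal and Cnp had Pearson correlations of 0.99 (Mog with Mal), 0.98 (Mog with Cnp) and 0.99 (Mal with Cnp), while Mog had 0.38 with Mobp, 0.40 with Cldn11 and 0.19 with Ermn. After the group means were taken out, Mog had 0.93 with Mobp, 0.67 with Cldn11 and 0.69 with Ermn. Against the mean of the other 8 genes the correlation was highest for Mag, 0.94, and Mbp, 0.92, and lowest for Ermn, 0.45. These values describe the 12 samples, which share groups and libraries, and carry no test.

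The genes whose log2 CPM was most like the mean of the 9 standardized genes over the 12 samples were Pacs2 (r = 0.955), Prr18 (0.944), Tmem125 (0.923), Slc29a3 (0.923), Foxn3 (0.915), Golga7 (0.906), Fa2h (0.905) and Josd2 (0.899). Fa2h makes the 2-hydroxy fatty acids of myelin galactolipids, and Slc29a3 is a nucleoside transporter. Prr18 was at 42.1, 59.7 and 53.2 CPM in aged sham and at 38.1, 38.8 and 31.8 CPM in aged ICH, and Pacs2, a sorting protein of membrane traffic, at 149, 164 and 166 CPM in aged sham and 130.2, 136 and 124 CPM in aged ICH. Both sets of aged ICH samples lay below all aged sham samples, as in 17.3% of all genes, and neither passed (edgeR adjusted P = 0.0672 for Prr18 and 0.106 for Pacs2). Both genes were picked for their likeness to the 9 genes in these same samples, so this order is no separate support. The least alike were Cyb561d1 (r = -0.891), Itga4 (-0.870), an integrin chain of leukocytes, and the small nucleolar RNA Snora34 (-0.847).

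Other genes of the sheath were counted in lists chosen by function. For these and the lists below, 6.15% of all genes tested were called lower and 7% higher in aged ICH against aged sham. In young ICH against young sham 9.23% were called lower and 9.89% higher. Of 40 further myelin and mature oligodendrocyte genes, 12 fell and 1 rose in aged ICH against aged sham, with a median log2 fold change of -0.34, the same as for the 9 genes to 2 decimals. Those with the smallest P among the 12 were Hhip (-1.55, edgeR adjusted P = 0.00661), an antagonist of hedgehog ligands, Gpr37 (-1.0003, edgeR adjusted P = 0.00796) and Lpar1 (-0.93, edgeR adjusted P = 0.00845), receptors of the oligodendrocyte, and Gjc3 (-0.90, edgeR adjusted P = 0.00915), a connexin. The gene that rose was Apod, a lipid carrier, from 513, 309 and 488 CPM in aged sham to 989, 1065 and 905 CPM in aged ICH, a log2 fold change of 1.18 (edgeR adjusted P = 0.00865). In young ICH against young sham 4 of the 40 fell, Omg, Tppp, Hhip and Ninj2, and 5 rose, among them Hapln2, Apod, Pmp22 and Trf, with a median of -0.02. Both counts in young mice are near the shares over all genes. None of the 40 passed in edgeR between aged ICH and young ICH, for the interaction or between the sham groups. At an unadjusted P under 0.05 were 11, 6 and 7 of the 40 in turn, beside 2050, 606 and 2653 of 21495 genes.

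Of 15 genes listed for the lipid metabolism of oligodendrocytes, not all of which make lipids, 4 fell in aged ICH against aged sham, namely Aspa (-1.10, edgeR adjusted P = 0.00641), which releases acetate for lipid synthesis, Ugt8a (-0.98, edgeR adjusted P = 0.00821), which makes galactosylceramide, Smpd3, which breaks down sphingomyelin, and Bche, a cholinesterase with no part in lipid synthesis, and 1 rose, Elovl1, which lengthens fatty acids. In young mice Elovl1 was the only gene of the list that rose, and Bche was the only gene of the list that fell. Both counts in young mice are near the shares of all genes called higher and lower. Of 15 genes of cholesterol synthesis 5 rose and none fell in aged mice, among them Msmo1 (0.41, edgeR adjusted P = 0.00999), an enzyme of the later steps, and in young mice 4 rose, among them Msmo1 (0.54, edgeR adjusted P = 0.00207), and 1 fell. The median log2 fold change of the cholesterol list was 0.30 in aged and 0.16 in young mice, against -0.12 and -0.01 for the lipid list and -0.34 and 0.08 for the 9 genes. Of 10 genes of the paranode and the nodal axon, where the sheath is anchored, 4 fell in aged mice and 6 in young mice, and Cntn1, Ank3, Epb41l3 and Kcna1 fell at both ages, by 0.41, 0.44, 0.38 and 0.50 on the log2 scale in aged mice and 0.39, 0.42, 0.35 and 0.47 in young mice.

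Along the oligodendrocyte lineage, Sox8 was the only one of 13 transcription factors to pass in aged ICH against aged sham. It fell by 0.65 on the log2 scale (edgeR adjusted P = 0.0390). A count of 1 in 13 is near the share of all genes called lower there, 6.15%. In young mice, where 9.23% of all genes were called lower and 9.89% higher, none of the 13 passed in edgeR. At an unadjusted P under 0.05 were 2 of the 13 in young mice, beside 7132 of 21495 genes. Of 14 genes of newly formed oligodendrocytes 3 fell in aged mice, Gpr17, Neu4 and Enpp6. Gpr17, a receptor of the cells about to mature, was at 20.1, 29.3 and 18.7 CPM in aged sham and at 8.00, 13.4 and 8.48 CPM in aged ICH (edgeR adjusted P = 0.00955), and it was also lower in aged ICH than in young ICH (edgeR adjusted P = 0.0174). Its log2 fold change of aged sham against young sham was -1.04 (edgeR adjusted P = 0.130), and its interaction did not pass in edgeR. The noncoding RNA 9630013A20Rik, a marker of the same stage, was between 4.57 and 6.55 CPM in the 6 young samples and between 0.609 and 1.55 CPM in the 6 aged samples, and was lower in aged than in young mice both with sham (edgeR adjusted P = 0.00335) and with ICH (edgeR adjusted P = 0.00135). In young mice Bcas1 rose (0.66, edgeR adjusted P = 0.0172). It was the only 1 of the 14 to pass there, which is near the share of all genes called higher, 9.89%. Of 12 progenitor genes 1 fell in aged mice, Ptprz1, and 1 in young mice, Cspg5. Both counts are near the share of all genes called lower, 6.15% in aged and 9.23% in young mice. The median of the progenitor list in aged mice was -0.26, with all 12 genes lower, beside 10691 of 21495 genes. All 10 general neuronal and all 10 striatal projection neuron genes were lower there too, and 0 of the 15 cholesterol genes. Of 8 genes that oligodendrocytes are known to raise after injury, 5 rose at each age, among them Cdkn1a (1.45 in aged and 1.19 in young mice), Serpina3n (1.89 and 2.31) and Il33 (0.90 and 1.08), and several of these are also made by astrocytes and other cells.

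Markers of other cells were counted in the same comparisons of ICH with sham at each age. Of 9 infiltrating myeloid genes tested, 7 rose with ICH at each age, and the summed level of the 10 listed was between 23.0 and 30.7 CPM in young sham, 84.9 and 131 in young ICH, 28.8 and 81.0 in aged sham and 141 and 152 in aged ICH. The most abundant was Lyz2, and none was at 0. Among 10 astrocyte genes 5 rose in young mice and 3 rose and 1 fell in aged mice, with Gfap the most abundant. Among 8 endothelial genes 5 rose in young and 3 in aged mice, with Ly6c1 the most abundant. Among 10 microglia genes P2ry12 and Siglech fell at both ages and Fcrls rose in aged mice.

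Over all genes, 6216 of 21495 had an unadjusted P under 0.05 in edgeR in aged ICH against aged sham, and 7132 in young ICH against young sham. Of 10 general neuronal genes 3 fell in young mice and none passed in edgeR in aged mice, with 1 at an unadjusted P under 0.05. Snap25 was the most abundant, and the sum of the 10 was between 7002 and 7662 CPM in aged sham and between 5727 and 6254 in aged ICH. No gene of the striatal projection neuron list passed in edgeR in either response to ICH, with 1 of 10 at an unadjusted P under 0.05 at each age, and the medians were -1.11 in aged and -0.95 in young mice. No gene of the choroid plexus list passed in edgeR, with 4 of 8 at an unadjusted P under 0.05 in aged mice, and none of 10 cortical neuron genes, of which Nrgn was the most abundant, with 2 at that level in young mice. None of 7 ependymal genes passed in edgeR, Ccdc39 being the most abundant, with 1 at that level in young mice. Of 5 red blood cell genes tested, 3 hemoglobin genes rose in young mice and none passed in edgeR in aged mice, with 1 at an unadjusted P under 0.05, and Hbb-bs was the most abundant. Of 5 peripheral myelin genes tested, Prx rose and Drp2, the most abundant, fell in young mice, and none passed in edgeR in aged mice, with 1 at an unadjusted P under 0.05. The part of these cells in the levels of the 9 genes was not tested.

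The 3 libraries with the most choroid plexus RNA were then left out, a choice made after seeing the data that leaves 1 aged ICH sample. The log2 fold change of aged ICH against aged sham was then -0.92 for Mog, -0.88 for Cnp and -0.85 for Mal. With 1 sample that group has no spread of its own, so no call is drawn from this fit.

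The 9 genes lie on 8 chromosomes in GRCm38, with Mal and Ermn both on chromosome 2. In GENCODE vM21 Mog lies on the minus strand at chr17:37010743-37023398, Mal on the minus strand at chr2:127633226-127656695 and Cnp on the plus strand at chr11:100574904-100591729. The end of Cnp overlaps Dnajc7 on the opposite strand over 154 exonic bases, Ermn overlaps Galnt5 on the opposite strand over 237, and Mobp shares 79 with the noncoding Gm38642 on its own strand. The sources used here do not state whether counting used strand, so reads there cannot be assigned with certainty. Dnajc7 was between 119 and 142 CPM in the 6 aged samples with a log2 fold change of -0.14 for aged ICH against aged sham (edgeR adjusted P = 0.104), Galnt5 was below 1 CPM and Gm38642 below 3 CPM in each of the 12 samples.

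The promoters of Mog, Cnp and Mal, which varied together over the 12 samples, and of Mobp, whose group means had another order, are shown. Promoters of 8 of the 9 genes, all but Mbp, which was set aside, were taken from the RefSeq table for GRCm38.p6, as 10 windows of 300 bases around a gene start. They were searched on both strands for ACAAAG or ACAATG, letters bound by SOX factors such as the oligodendrocyte factor Sox10, and for CTGGCAC, bound by Myrf, the factor that switches on myelin genes. The first pair occurred in 28.6% of all 32851 promoters in the table and the second motif in 5.01%. Of the 8 genes 5 held the SOX letters and 3, Mag, Cnp and Opalin, held CTGGCAC. These counts are per gene, with Mag counted if any of its 3 windows held a match, while the shares are per promoter. The window of Mobp held 6 matches to the SOX letters, the most of any promoter in the table, and those of Mog, Mal and Cldn11 held no match to either motif. A match is only a description of the letters. The promoters of Mog (chr17:37023349-37023648, minus strand), Mal (chr2:127656646-127656945, minus strand), Cnp (chr11:100574689-100574988, plus strand) and Mobp (chr9:120149492-120149791, plus strand) read as follows, with matches in capitals.
Mog: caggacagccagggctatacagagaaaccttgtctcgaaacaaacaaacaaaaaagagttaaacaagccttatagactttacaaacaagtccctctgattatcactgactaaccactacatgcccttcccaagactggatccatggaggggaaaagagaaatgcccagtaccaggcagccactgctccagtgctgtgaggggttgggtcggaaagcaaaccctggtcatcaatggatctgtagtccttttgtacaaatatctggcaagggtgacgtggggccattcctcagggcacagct
Mal: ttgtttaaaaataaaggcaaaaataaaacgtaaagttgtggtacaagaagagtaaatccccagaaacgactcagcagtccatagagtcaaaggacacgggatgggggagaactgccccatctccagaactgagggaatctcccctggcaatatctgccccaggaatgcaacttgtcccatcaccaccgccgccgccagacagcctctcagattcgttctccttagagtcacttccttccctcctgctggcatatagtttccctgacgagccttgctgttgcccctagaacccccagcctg
Cnp: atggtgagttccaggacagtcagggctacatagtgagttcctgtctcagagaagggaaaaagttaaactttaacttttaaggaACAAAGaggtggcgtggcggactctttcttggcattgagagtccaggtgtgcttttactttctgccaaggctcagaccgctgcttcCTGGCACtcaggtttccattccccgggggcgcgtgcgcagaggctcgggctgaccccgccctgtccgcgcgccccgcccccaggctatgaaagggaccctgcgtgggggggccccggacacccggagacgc
Mobp: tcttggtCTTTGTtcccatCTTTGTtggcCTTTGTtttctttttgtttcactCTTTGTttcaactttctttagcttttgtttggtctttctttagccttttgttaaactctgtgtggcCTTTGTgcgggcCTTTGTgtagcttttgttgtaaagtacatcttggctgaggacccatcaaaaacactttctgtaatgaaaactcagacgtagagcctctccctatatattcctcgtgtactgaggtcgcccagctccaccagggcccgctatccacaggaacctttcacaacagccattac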

How the data were processed

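Total RNA from 12 pooled tissue samples was sequenced. The authors aligned reads with HISAT2 and counted them per gene with featureCounts of the Subread package (sample labels, build GRCm38.p6), with versions stated in the study's methods, and the sources used here do not state the strand setting or the treatment of reads that map to several places. The deposited table holds raw read counts and, from the authors, FPKM for each sample. All of its columns of values were used, and samples were grouped by their labels.

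Counts were tested in R 4.3.3 with the quasi-likelihood test of edgeR 4.0.16 (TMM factors, filterByExpr with a minimum count of 10, all 12 samples in 1 fit of 4 groups with 8 residual degrees of freedom), with Benjamini-Hochberg adjustment over the 21495 genes tested, and the scripts were tested on simulated data. CPM used TMM library sizes. Correlations used log2 CPM with a prior count of 2. Alternatives were DESeq2 1.42.0, other scaling, no filter, each sample left out, a replicate block, only the groups compared, and limma 3.58.1 on log2(FPKM + 1) or log2(FPKM + 0.1) for genes with a mean FPKM of at least 0.5. All 9 genes were named in each comparison, and from 19 other lists up to 4 genes a direction past the threshold, smallest P first, or else the one with the smallest P, could be named, of which the text gives a part, besides the 8 genes most like the 9 and the 3 least. The genes and lists were chosen with earlier results of these data known. 4 genes of this rule are not reported here. At this depth each of the 9 genes had at least 302 counts in a sample, so the spread between pools, not counting error, sets the precision.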

Additional observations from a re-analysis of the deposited data

How the results depend on the processing

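In aged ICH against aged sham, Mog, Mal and Cnp each passed with DESeq2, with RLE factors, with total counts only, without a filter, with a replicate block, with only the groups compared and in both limma fits, and Opalin also passed with DESeq2 (adjusted P = 0.0383), which gave 4 genes. The samples left out in turn gave 0 to 4 genes called, the highest without young ICH replicate 3. The DEGs there were 3 with total counts only, with a replicate block, with only the groups compared and in both limma fits, and 3 to 4 over the samples left out, the gene lost being Opalin. Between aged ICH and young ICH, 3 genes passed with DESeq2 and 3 without a filter, against 0. Between these groups the DEGs were 3 with total counts only, with a replicate block and in both limma fits, and 3 to 5 over the samples left out. The interaction gave 3 DEGs with total counts only and 1 with a replicate block, against 2. It gave 0 and 1 in limma with log2(FPKM + 1) and log2(FPKM + 0.1), and 0 to 4 over the samples left out. Over the samples left out the DEGs were 0 to 1 between the sham groups and in young mice, and the median was -0.25 to 0.03 between the sham groups, -0.19 to 0.22 in young mice, -0.66 to -0.35 between the ICH groups and -0.61 to -0.28 in the interaction. Without the 3 libraries rich in choroid plexus RNA the median in young mice was -0.19. The cause of these differences was not tested.

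Some single values changed sign. Mag in aged sham against young sham was 0.0276 with total counts only, 0.0019 with a replicate block and 0.0516 and 0.0531 in the limma fits, and Mobp in aged ICH against aged sham was 0.0541 with total counts only and 0.0620 and 0.0624 in the limma fits. Without the 3 libraries Mag was -0.0136 and Ermn -0.19 in young mice. Ranges over the samples left out were, between the sham groups, -0.12 to 0.27 for Mbp, -0.18 to 0.15 for Mag, -0.12 to 0.28 for Mobp, -0.32 to 0.00886 for Cnp and -0.25 to 0.0298 for Opalin. In young mice they were -0.0635 to 0.32 for Mbp, -0.0372 to 0.30 for Mag, -0.35 to 0.0364 for Mal, -0.38 to 0.0293 for Opalin and -0.19 to 0.24 for Ermn. They were -0.36 to 0.0358 for Cldn11 in the interaction, -0.14 to 0.28 for Ermn between the ICH groups and -0.13 to 0.0711 for Mobp in aged mice. Total counts only moved the median of all genes in young mice from 0.02 to 0.11.

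Samples share replicate numbers across groups, but their deviations from the group means did not pair them (r from -0.454 to 0.235 for the same number, -0.374 to 0.410 for different numbers). The replicate block, given above, changed no call at an adjusted P under 0.05 of the 9 genes. With 3 pools a group, differences in the tissue dissected and differences between the groups cannot be told apart.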
